A study of Rattus norvegicus with 8 samples.

Results

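Kidney arrays of 1 rat series were split by the signal of Cyp24a1, the gene of the vitamin D 24-hydroxylase, and the 4 arrays with a high signal were set beside the 4 with a low signal. All 8 arrays of the series were used, and the sides were chosen by this 1 measured value. An array was placed on the high side when its Cyp24a1 probe set lay above 8 on the log2 scale of intensity and on the low side when it lay below. This gave 2 high and 2 low arrays in cortex (replicates 3 and 4 high, replicates 1 and 2 low) and the same in medulla. Cyp24a1 measured 5.42 and 6.21 on the low cortex arrays and 10.18 and 10.65 on the high ones, and 5.31 and 5.69 on the low medulla arrays and 10.08 and 9.97 on the high ones. The high array nearest to the threshold was medulla replicate 4 at 9.97, and the nearest low array was cortex replicate 2 at 6.21.

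The tissue came from male Wistar rats, aged 10 weeks. The labels give every array the same treatment, ethylene glycol each day together with vitamin D on alternate days for 1 week, so they separate the arrays only by region, 4 of cortex and 4 of medulla. Neither side is a labelled treatment, and no condition is inferred for it. Because a measured gene sorted the arrays, every gene of this contrast is given as a description, with no test. The labels name no separate animals, and the shared replicate numbers only name arrays, without linking a cortex array to a medulla array.

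Vitamin D acts through its receptor, a transcription factor that pairs with a retinoid X receptor on DNA. Cyp24a1 is among the best known targets of that receptor in the kidney, and its enzyme inactivates the vitamin D hormone. Other known actions of the hormone in the kidney are on calcium reabsorption in the distal nephron, through the apical channel Trpv5, the binding proteins calbindin-D28k (Calb1) and calbindin-D9k (S100g), and the basolateral exporters Slc8a1 and Atp2b1. Ethylene glycol is metabolised to oxalate, which forms calcium oxalate crystals in the tubule.

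Median intensity ran from 34.1 to 34.7 over the arrays, and precision is limited by how few arrays there are. Markers of kidney were present on every array, with the proximal endocytic receptor gene Lrp2 at 10.38 to 10.82, uromodulin (Umod) at 10.54 to 11.89 and the water channel gene Aqp2 at 8.03 to 10.78 log2 intensity. The urea transporter gene Slc14a2, a medullary marker, was at 4.80 to 5.88 in cortex and 6.15 to 7.42 in medulla. Over all arrays the slit diaphragm gene Nphs1, a glomerular marker of cortex, overlapped between the regions, at 6.23 to 7.15 in cortex and 5.87 to 6.73 in medulla. The overlap came from the low arrays, at 6.23 and 6.82 in cortex and 5.87 and 6.73 in medulla. On the high arrays Nphs1 was at 7.15 and 6.77 in cortex and 6.12 and 6.07 in medulla, without overlap. In bulk tissue, fewer cells of a type and less RNA per cell cannot be told apart.

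Over 18165 genes other than Cyp24a1, 33 were called higher and 21 called lower on the high arrays, which is 0.182% and 0.116% of the genes. A gene was called when the mean of the high arrays differed from that of the low arrays by at least 2-fold in cortex and in medulla, the same way, and the high and low arrays did not overlap within either region. In cortex alone 50 genes (0.275%) passed higher and 68 (0.374%) lower, and in medulla alone 97 (0.534%) and 53 (0.292%). The shared higher genes were thus 33 of 50 in cortex and 33 of 97 in medulla, the shared lower genes were 21 of 68 and 21 of 53, and 0 genes passed in opposite directions. Without cortex replicate 4 the counts were 10 higher and 7 lower, and without medulla replicate 4 they were 16 and 9. Without cortex replicate 3 they were 63 and 44, and without medulla replicate 3 they were 39 and 46. The lowest value lay within 0.5 of the arrays' lower quartile for Havcr1, Trpv5, Ptprq, Olr1, Cemip, Fgg, Angptl4, Csrp3 and Lif among the higher genes and for Prima1, Pcsk6 and Slc22a13 among the lower ones, so the size of their differences is a lower limit. The difference of a gene below is the mean of its cortex and medulla differences in log2 units. Its range is given as the lowest and highest of the 8 pairs that set a high array against a low array of the same region. The pairs share arrays, so the range is no error of the mean, and for a called gene the rule itself keeps it off 0.

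**Figure D1:**
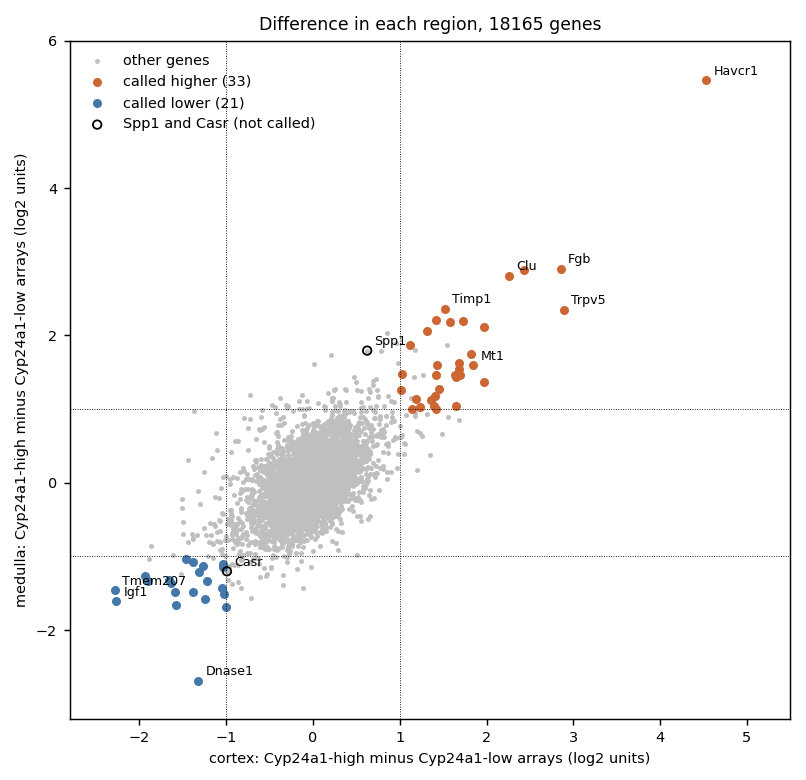
Difference between the Cyp24a1-high and Cyp24a1-low arrays in cortex (horizontal axis) and in medulla (vertical axis), both in log2 units, for 18165 genes, with dotted lines at a 2-fold difference. The 33 genes called higher lie in the upper right and the 21 called lower in the lower left, Havcr1 is the gene farthest from the rest, and Spp1 and Casr, ringed, were not called.

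The high arrays were not alike, and most called genes lay farther from the low arrays on the replicate 4 array than on the replicate 3 array of the same region. This held in both regions for 30 of the 33 higher genes and for 21 of the 21 lower ones. The median shift of the higher genes from the low arrays was 0.52 in cortex and 0.92 in medulla on the replicate 3 arrays, and 2.50 and 2.28 on the replicate 4 arrays. The replicate 3 and 4 arrays differed by at least 2-fold in 319 genes in cortex and 214 in medulla, whereas the low arrays differed so in 22 and 43. With the replicate 3 arrays alone as the high side, 8 genes passed higher (0.0440%) and 2 lower (0.0110%). With the replicate 4 arrays alone, 131 passed higher (0.721%) and 123 lower (0.677%), of which 31 and 21 were among the called genes.

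The genes that passed on the replicate 3 arrays alone were Havcr1, Trpv5, Clu, Ceacam20, Calb1, Tmem252, Ptprq and Slc13a1 on the higher side, and Igf1 and Cyp2c11 on the lower side. All but Calb1 were also called with all arrays. Of the called genes, 4 were at least 2-fold apart in each of the 8 pairs, namely Havcr1 and Clu higher (0.0110% of genes) and Igf1 and Cyp2c11 lower (0.0110%).

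**Figure D2:**
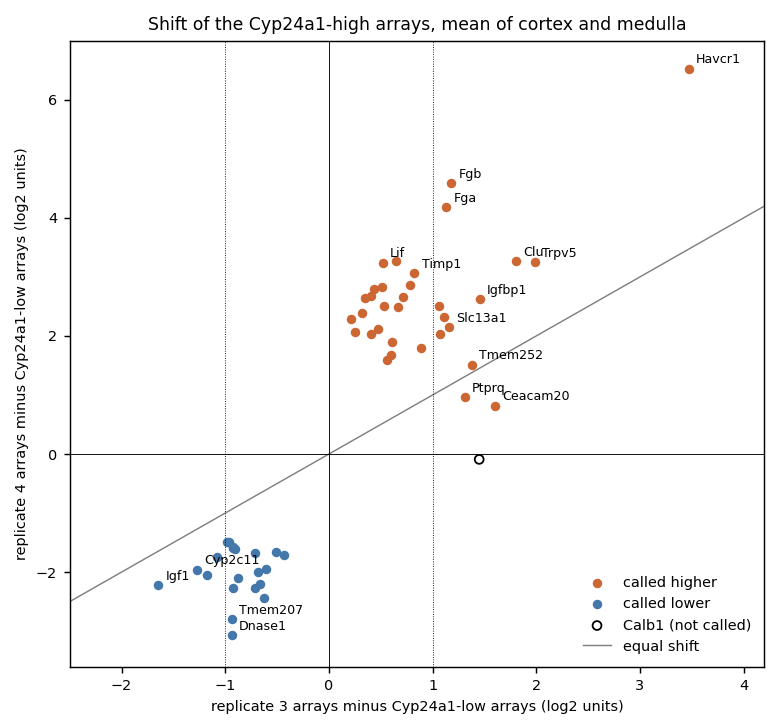
Shift of the replicate 3 arrays (horizontal axis) and of the replicate 4 arrays (vertical axis) from the Cyp24a1-low arrays, in log2 units and averaged over cortex and medulla, for the 54 called genes and Calb1, which was not called. Points off the grey line of equal shift differed between the high arrays, with Fga and Fgb well above it and Ptprq, Ceacam20 and Calb1 below it.

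The genes called higher included 5 transporter genes, Trpv5, Slc13a1, Slc5a12, Slc34a2 and Slc2a2, which were picked from the called genes and stand for no class. Trpv5, the calcium entry channel of the distal tubule, measured 5.47 and 6.53 on the low cortex arrays against 8.15 and 9.64 on the high ones, and 4.86 and 6.59 against 7.56 and 8.60 in medulla. Every high array lay above both low arrays of its region, although the low arrays themselves differed by 1.06 and 1.73. Its difference was 2.62, with pairs between 0.96 and 4.17, which is 6.14-fold.

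Slc13a1, the sodium-sulfate cotransporter of the proximal brush border, measured 8.78 and 9.28 on the low cortex arrays against 10.13 and 11.30, and 8.57 and 9.15 against 10.07 and 10.90 in medulla. Its difference was 1.65 (pairs 0.85 to 2.51), and it was 1.15 on the replicate 3 arrays and 2.15 on the replicate 4 arrays. Slc5a12, a sodium-lactate cotransporter of the proximal tubule, differed by 1.55 (pairs 0.40 to 2.87). Slc34a2, the sodium-phosphate cotransporter best known from lung and intestine, differed by 1.82, but by 0.78 on the replicate 3 arrays against 2.86 on the replicate 4 arrays. Slc2a2, the basolateral glucose transporter, differed by 1.29, with 0.47 and 2.11 on these arrays.

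The other genes of the calcium pathway were not called, which at the shares over all genes, 0.182% higher and 0.116% lower, is no result about them. In the list of 12 calcium transport genes 1 was called higher, 0 lower, and the median difference was 0.18, against 0.00017 over all genes. Calb1 measured 8.98 and 10.28 on the low cortex arrays and 10.98 and 9.62 on the high ones, and 7.74 and 10.10 against 10.47 and 8.74 in medulla. On both replicate 3 arrays it was therefore above the low arrays, by 1.45 on average, whereas both replicate 4 arrays lay between the low arrays. Slc8a1, the sodium-calcium exchanger of the basolateral membrane, had its highest cortex value, 9.26, on replicate 3 and its lowest, 7.59, on replicate 4. In medulla it was at 8.48 on replicate 3 and 6.96 on replicate 4. Its low arrays also lay apart, at 7.64 and 8.87 in cortex and 7.17 and 8.47 in medulla. S100g was at 5.09 and 5.22 against 6.21 and 6.04 in cortex, and at 5.17 and 5.34 against 5.63 and 5.28 in medulla, where the arrays overlapped. Trpv6, the related calcium channel, had no overlap but a low signal, with a difference of 0.51 and values between 4.85 and 5.87. Casr, the calcium-sensing receptor, was at 6.48 on both replicate 4 arrays and between 8.15 and 8.72 on all other arrays, so that the replicate 3 arrays did not share its low value. Cldn14, a claudin that blocks paracellular calcium in the thick ascending limb, differed by 0.18 without overlap, with all values between 4.62 and 5.03. The remaining members overlapped in cortex, namely the claudin genes Cldn16 (-0.24) and Cldn19 (0.45), the parathyroid hormone receptor gene Pth1r (-0.58) and the calcium pump genes Atp2b1 (0.19) and Atp2b4 (-0.08). In medulla Pth1r was lower and Atp2b1 higher without overlap, and the others overlapped.

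Of the 8 measured genes of vitamin D metabolism 0 were called, with a median difference of -0.14. Over all genes 0.182% were called higher and 0.116% lower, so 0 of 8 is no result about these genes. Vdr, the receptor, measured 7.45 and 8.12 against 8.86 and 8.69 in cortex and 7.37 and 7.93 against 8.03 and 8.04 in medulla. It did not overlap in either region, but its differences of 0.99 in cortex and 0.38 in medulla were both under 2-fold. Cubn, the cubilin gene of proximal endocytosis, differed by 0.36 without overlap, and its partner Lrp2 by -0.09 with overlap in cortex only. Gc, the vitamin D binding protein gene, measured 8.65 and 8.81 against 8.42 and 6.74 in cortex and 8.13 and 8.32 against 7.84 and 6.93 in medulla, a difference of -0.99 that was larger on the replicate 4 arrays. Gc did not overlap in either region, and its difference passed 2-fold in cortex, at -1.15, but not in medulla, at -0.84. Cyp2r1 and Cyp27a1, which encode hydroxylases in the activation of vitamin D, differed by -0.12 with overlap and by -0.33 without. The retinoid X receptor genes Rxra and Rxrb differed by -0.16 and -0.24. Rxra overlapped in neither region, and was higher on the high arrays in cortex, by 0.20, but lower in medulla, by -0.52. Rxrb overlapped in cortex, at -0.02, but not in medulla, at -0.45. Cyp27b1, the renal 1-alpha-hydroxylase, had no single-gene probe set among those used here.

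Of the 8 measured genes of phosphate handling 0 were called, with a median difference of -0.16. At the shares called over all genes, 0.182% and 0.116%, this count is no result about them. Slc34a1, the main phosphate cotransporter of the proximal tubule, overlapped in cortex, at 10.59 and 10.98 against 11.10 and 10.42, and was lower on both high arrays in medulla, at 10.84 and 11.01 against 9.86 and 9.71. Kl, the Klotho gene, behaved likewise, with 9.27 and 9.70 against 9.52 and 9.14 in cortex and 9.18 and 9.69 against 8.86 and 8.60 in medulla. Slc20a1, another phosphate transporter gene, did not overlap and differed by 0.52. The cotransporter gene Slc34a3 differed by -0.08, the receptor gene Fgfr1 by -0.14 and the scaffold protein genes Pdzk1 and Nherf1 by -0.30 and -0.19. These genes overlapped in cortex, but in medulla each was lower on both high arrays. Their closest medulla pairs were -0.07, -0.09, -0.08 and -0.15. The exporter gene Xpr1 differed by -0.05, with overlap in both regions. Whether the sides differ more in medulla than in cortex was not tested.

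**Figure D3:**
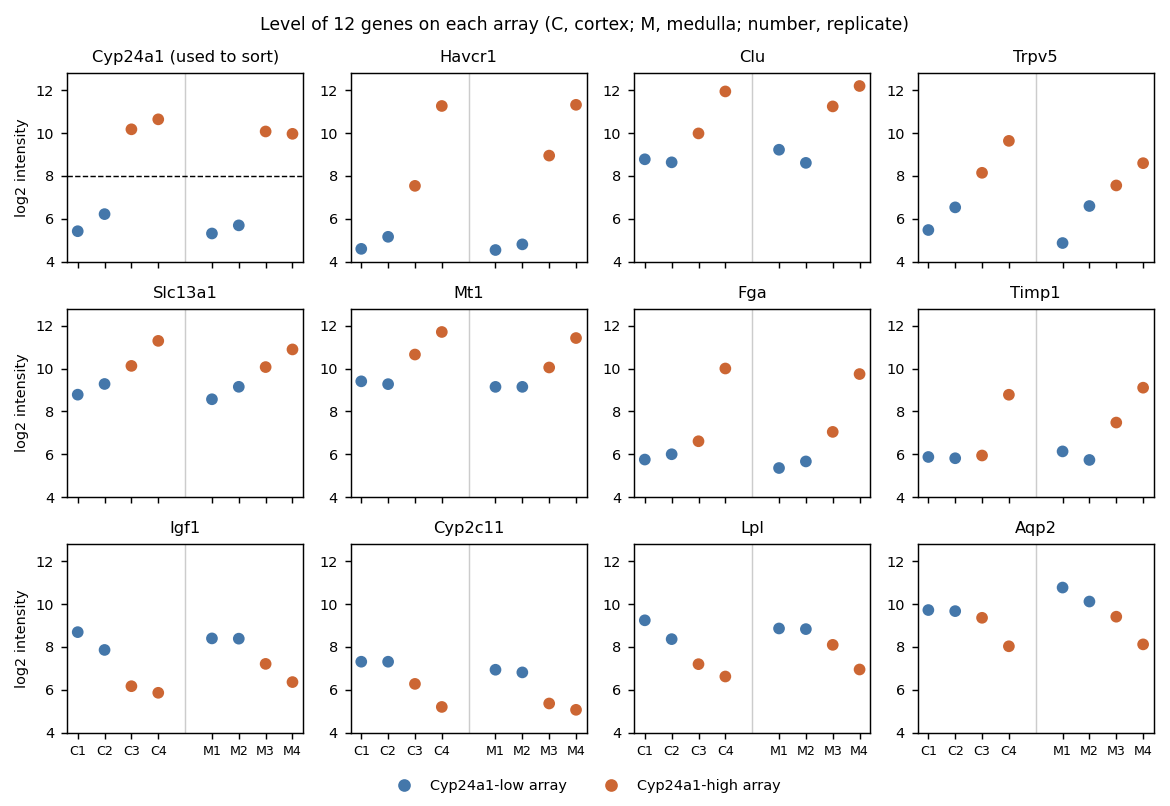
Log2 intensity of 12 genes on each of the 4 cortex arrays (C1 to C4) and 4 medulla arrays (M1 to M4), with Cyp24a1-low arrays in blue and Cyp24a1-high arrays in orange. The first panel shows Cyp24a1 with the threshold of 8 that sorted the arrays, Trpv5, Slc13a1 and Mt1 stand higher on every high array of their region, Fga and Timp1 mainly on replicate 4, and the 4 genes of the bottom row stand lower.

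Havcr1 had the widest difference of the called genes. It encodes kidney injury molecule 1 and differed by 5.00, with pairs between 2.38 and 6.79, so that even the closest high and low arrays were 5.21-fold apart. Its low arrays, at 4.54 to 5.15, lay near the lower quartile of the arrays, 4.44 to 4.48, which makes the fold a lower limit. Its shift was 3.47 on the replicate 3 arrays and 6.53 on the replicate 4 arrays. Clu, the gene of the secreted chaperone clusterin, measured 8.78 and 8.64 against 9.99 and 11.95 in cortex and 9.22 and 8.61 against 11.25 and 12.20 in medulla, a difference of 2.54 (pairs 1.21 to 3.59). Tnfrsf12a, the receptor of the cytokine TWEAK, was called with a difference of 1.36, but its closest pair differed by only 0.08.

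Of the 19 measured genes of the tubular injury list, 3 were called higher and 0 lower, against 0.182% and 0.116% of all genes. In this list 4 genes did not overlap, against 4.50% of all genes higher without overlap. The list's median was 0.49, at 0.10 on the replicate 3 arrays and 1.08 on the replicate 4 arrays. Lcn2, the lipocalin of tubular injury, was at 4.70 to 4.83 on every array other than 5.44 and 5.82 on the replicate 4 arrays. The keratin gene Krt18, the annexin gene Anxa1 and S100a10 had differences of 0.84, 0.88 and 0.80. Krt18 overlapped in medulla only, and Anxa1 and S100a10 in cortex only. Spp1, which encodes osteopontin, was 10.01 and 9.56 against 9.18 and 11.64 in cortex, where the high arrays fell on both sides of the low ones, and 10.14 and 9.79 against 11.55 and 11.97 in medulla.

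Metallothioneins, small cysteine-rich proteins that bind zinc and copper, were higher on all 4 high arrays. Mt1 measured 9.41 and 9.28 against 10.66 and 11.71 in cortex and 9.15 and 9.15 against 10.05 and 11.43 in medulla, a difference of 1.72 (pairs 0.91 to 2.44). Mt1f followed it, with a difference of 1.79 (pairs 0.83 to 2.67). The metallothionein genes are similar in sequence, and how far their probe sets share signal was not tested. Mt2A differed by 1.00 and did not overlap, but its cortex difference of 0.90 kept it from being called. Gpx2, a glutathione peroxidase, differed by 1.67, with 0.51 on the replicate 3 arrays and 2.83 on the replicate 4 arrays. In the oxidative stress list 2 of 19 genes were called higher, against 0.182% of all genes. The haem oxygenase gene Hmox1 was not called, at 4.96 to 5.14 on all arrays but the replicate 4 arrays, which stood at 6.42 and 6.22.

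The Mt1 promoter is shown because metallothionein promoters are known for metal response elements, whose core reads TGCACNC or TGCGCNC. The window of RefSeq assembly GRCr8, chr19:10832926-10833225 on the minus strand, runs from 250 bases before to 50 after the gene start, with matches on either strand in capitals.
Mt1: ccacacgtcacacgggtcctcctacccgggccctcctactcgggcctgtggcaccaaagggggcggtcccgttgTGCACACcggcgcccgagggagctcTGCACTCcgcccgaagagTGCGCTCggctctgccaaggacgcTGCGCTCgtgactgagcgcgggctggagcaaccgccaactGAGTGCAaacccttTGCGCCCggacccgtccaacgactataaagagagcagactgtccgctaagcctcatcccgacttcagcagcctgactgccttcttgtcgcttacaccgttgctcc
It held 6 matches, 5 on the gene's strand. At least 1 match was found in 24.2% of all 33469 promoter windows, and 6 or more in 0.0388%. Counted by gene, the core was in a window of 31.7% of the 14564 compared genes that have one, and of 16 of the 42 called genes that have one, 9 higher and 7 lower.

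Against 0.182% higher and 0.116% lower over all genes, fibrinogen and clotting genes were called higher in 4 of 13 and lower in 0, with a list median of 0.13. The 4 were Fga, Fgb, Fgg and F3. Fibrinogen, made mainly by the liver, is built from the products of the first 3. Fga stood at 6.61 and 7.04 on the replicate 3 arrays, above low arrays at 5.75 and 6.00 in cortex and 5.36 and 5.66 in medulla, and at 10.01 and 9.75 on the replicate 4 arrays. The shift of the replicate 3 arrays was thus 1.18 for Fgb, 1.13 for Fga and 0.65 for Fgg, and that of the replicate 4 arrays was 4.58, 4.19 and 3.27. The low arrays of Fgg, at 4.46 to 4.49, lay at the lower quartile, so its shifts are lower limits and are not set against the others. F3, which encodes tissue factor, the trigger of clotting, shifted by 0.41 and 2.02. The hepatocyte list had 0 of 5 measured genes called and a median difference of 0.0053, with mean levels of 5.19 to 5.48 on the high arrays and 5.31 to 5.40 on the low arrays.

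The promoters of Fgg and Fgb are shown because fibrinogen genes are known to respond to interleukin-6 through elements with the core CTGGGAA. The windows are chr2:170652833-170653132 on the plus strand for Fgg and chr2:170700826-170701125 on the minus strand for Fgb, in assembly GRCr8, with the core in capitals.
Fgg: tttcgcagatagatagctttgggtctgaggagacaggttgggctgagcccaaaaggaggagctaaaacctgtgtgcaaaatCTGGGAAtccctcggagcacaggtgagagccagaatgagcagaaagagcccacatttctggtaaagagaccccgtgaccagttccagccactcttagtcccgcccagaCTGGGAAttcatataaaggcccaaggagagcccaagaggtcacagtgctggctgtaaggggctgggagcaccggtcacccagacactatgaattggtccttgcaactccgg
Fgb: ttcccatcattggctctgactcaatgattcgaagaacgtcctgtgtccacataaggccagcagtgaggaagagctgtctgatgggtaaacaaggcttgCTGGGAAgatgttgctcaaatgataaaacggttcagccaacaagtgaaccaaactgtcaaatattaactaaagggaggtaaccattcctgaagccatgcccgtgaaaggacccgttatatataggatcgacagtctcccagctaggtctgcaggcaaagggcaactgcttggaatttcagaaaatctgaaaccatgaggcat
Fgg held 2 matches and Fgb 1, and Fga held none in its windows. The core was found on either strand in a window of 11.1% of the 14564 compared genes and of 7 of the 42 called genes, which besides Fgb and Fgg were Trpv5, C3, Serpina3n, Gpx2 and Kcnt1. The vitamin D response element was also searched, as 2 direct copies of a hexamer spaced by 3 bases, on both strands. The hexamers AGGTCA and GGGTCA were accepted. So were AGTTCA and, lastly, GGTTCA. The element was found in 0.130% of the 14564 compared genes and in 0 of the 42, which says only that these letters are not in these windows.

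Further genes called higher were Lif, Timp1, C3, Serpina3n, Cxcl11 and Cemip, each with the larger shift on the replicate 4 arrays. Lif, a cytokine of the interleukin-6 family, shifted by 0.52 on the replicate 3 arrays and 3.24 on the replicate 4 arrays, and Timp1, an inhibitor of matrix metalloproteinases, by 0.82 and 3.06. In cortex their replicate 3 array lay just above the low arrays, by 0.09 for Lif and 0.07 for Timp1, and in medulla it lay clearly higher, at 5.89 against 4.96 and 4.99 for Lif and at 7.48 against 6.13 and 5.73 for Timp1. The complement gene C3 shifted by 0.71 and 2.66, the acute-phase inhibitor gene Serpina3n by 0.61 and 1.89, the chemokine gene Cxcl11 by 0.60 and 1.68, and Cemip, which is needed for hyaluronan breakdown, by 0.53 and 2.50. In the IL-6 family list 1 of 13 genes was called, and in the lists of chemokines, leukocytes and early response transcription factors 0 of 11, 0 of 19 and 0 of 12. The shares over all genes were 0.182% higher and 0.116% lower. The transcription factor genes Myc and Atf3 had differences of 1.30 and 1.14 but overlapped, since their cortex replicate 3 values, 5.64 and 5.51, lay below the low arrays, and both replicate 4 arrays were at 7.73 or above.

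The next called genes were picked for what their products do and form no counted list. Igf1, which encodes insulin-like growth factor 1, measured 8.69 and 7.86 against 6.16 and 5.86 in cortex and 8.40 and 8.39 against 7.21 and 6.36 in medulla. All 4 high arrays were low, with a difference of -1.94 (pairs -2.84 to -1.18), and the shift was -1.65 on the replicate 3 arrays and -2.23 on the replicate 4 arrays. Igfbp1, which encodes a binding protein of that factor, measured 6.73 and 6.81 against 7.65 and 9.82 in cortex and 7.77 and 7.11 against 9.47 and 9.64 in medulla, a difference of 2.04 (pairs 0.84 to 3.09). Its medulla replicate 3 and 4 arrays were close to each other, unlike those of cortex.

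Lpl, the lipoprotein lipase gene, measured 9.24 and 8.37 against 7.19 and 6.62 in cortex and 8.86 and 8.83 against 8.10 and 6.95 in medulla, a difference of -1.61 (pairs -2.63 to -0.74). Angptl4, whose product inhibits that lipase, differed by 1.62, with 0.43 on the replicate 3 arrays and 2.80 on the replicate 4 arrays. Olr1, the receptor for oxidised low-density lipoprotein, differed by 1.58 (0.67 and 2.49 on these arrays). The adipocyte list had 0 of 5 genes called and a median of -0.02, with mean levels of 5.51 to 5.82 on the high and 5.70 to 5.93 on the low arrays. Cyp2c11, a cytochrome P450 best known as the male-specific form of rat liver, measured 7.31 and 7.31 against 6.27 and 5.20 in cortex and 6.93 and 6.81 against 5.36 and 5.06 in medulla, a difference of -1.62 (pairs -2.11 to -1.04).

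The list of collecting duct principal cells was the 1 list with genes called lower, with 3 of 10 called lower, 0 higher and a median of -0.60. That median was -0.13 on the replicate 3 arrays and -0.92 on the replicate 4 arrays. Over all genes 0.116% were called lower and 0.182% higher. Aqp2, the vasopressin-regulated water channel, measured 9.72 and 9.67 against 9.36 and 8.03 in cortex and 10.78 and 10.12 against 9.41 and 8.12 in medulla, a difference of -1.34. Aqp3, the basolateral water channel of the same cells, differed by -1.08, and Fxyd4, a regulator of the sodium pump, by -1.26, each with the larger shift on the replicate 4 arrays. Their closest pairs differed by only -0.09 and -0.29, and their low medulla arrays lay 0.88 and 1.20 apart. Avpr2, the vasopressin receptor, did not overlap and differed by -0.66, short of 2-fold in cortex and, narrowly, in medulla. The sodium channel genes Scnn1a, Scnn1b and Scnn1g had differences of 0.02, -0.09 and 0.07, so not all genes of this cell type were lower in both regions. These means join cortex differences of 0.27, 0.26 and 0.37 with medulla differences of -0.24, -0.44 and -0.24. Scnn1a overlapped in both regions, Scnn1b in cortex only and Scnn1g in medulla only.

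In the thick ascending limb list 0 of 9 genes were called, against 0.182% higher and 0.116% lower over all genes. In this list 8 of 9 differences were negative, whereas 9097 of 18165 were positive over all genes. The list's median was -0.72, at -0.25 on the replicate 3 arrays and -1.26 on the replicate 4 arrays. Umod, in that list, did not overlap and differed by -0.72. Tmem207, a transmembrane protein gene outside that list, was called lower at -1.87, with 8.86 and 8.27 against 7.45 and 5.11 in cortex and 8.54 and 8.67 against 7.84 and 6.46 in medulla. Dnase1, a secreted nuclease gene, had the most negative difference of the called genes, at -1.32 in cortex and -2.69 in medulla, but with very unequal arrays, since cortex replicate 3 was at 9.13, next to a low array at 9.21, while medulla replicate 4 was at 6.13 against 9.86 and 9.89. Slc22a13, an organic anion transporter gene, differed by -1.59, and Rgn, the regucalcin gene, by -1.54, the latter with -0.63 on the replicate 3 arrays and -2.44 on the replicate 4 arrays. Ppp1r1b and Ppp1r1a, which encode inhibitors of protein phosphatase 1, differed by -1.41 and -1.49.

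The other called genes complete the set. On the higher side these were Tmem252 (1.44), the receptor-type phosphatase gene Ptprq (1.13), the adhesion molecule gene Ceacam20 (1.21), the GABA receptor subunit gene Gabrp (1.34), Tsc22d1 (1.07), Mab21l3 (1.54), the LIM protein gene Csrp3 (1.49), the adhesion receptor gene Pvr (1.24) and the RNA helicase gene Ddx52 (1.16). Ptprq and Ceacam20 were the 2 genes whose replicate 3 arrays shifted farther than the replicate 4 arrays in both regions, at 6.34 and 6.15 against 6.17 and 5.62 for Ptprq and at 7.34 and 6.93 against 6.57 and 6.14 for Ceacam20. Tmem252 had nearly equal shifts, 1.38 on the replicate 3 arrays and 1.51 on the replicate 4 arrays. On the lower side the others were Prima1, which anchors acetylcholinesterase (-1.25), Lrrc66 (-1.49), the proprotein convertase gene Pcsk6 (-1.23), Tmem86a (-1.24), Mfsd4a (-1.28), the potassium channel gene Kcnt1 (-1.20), S100a1 (-1.26), Osgin1 (-1.43) and Caln1 (-1.07), all with the larger shift on the replicate 4 arrays.

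**Figure D4:**
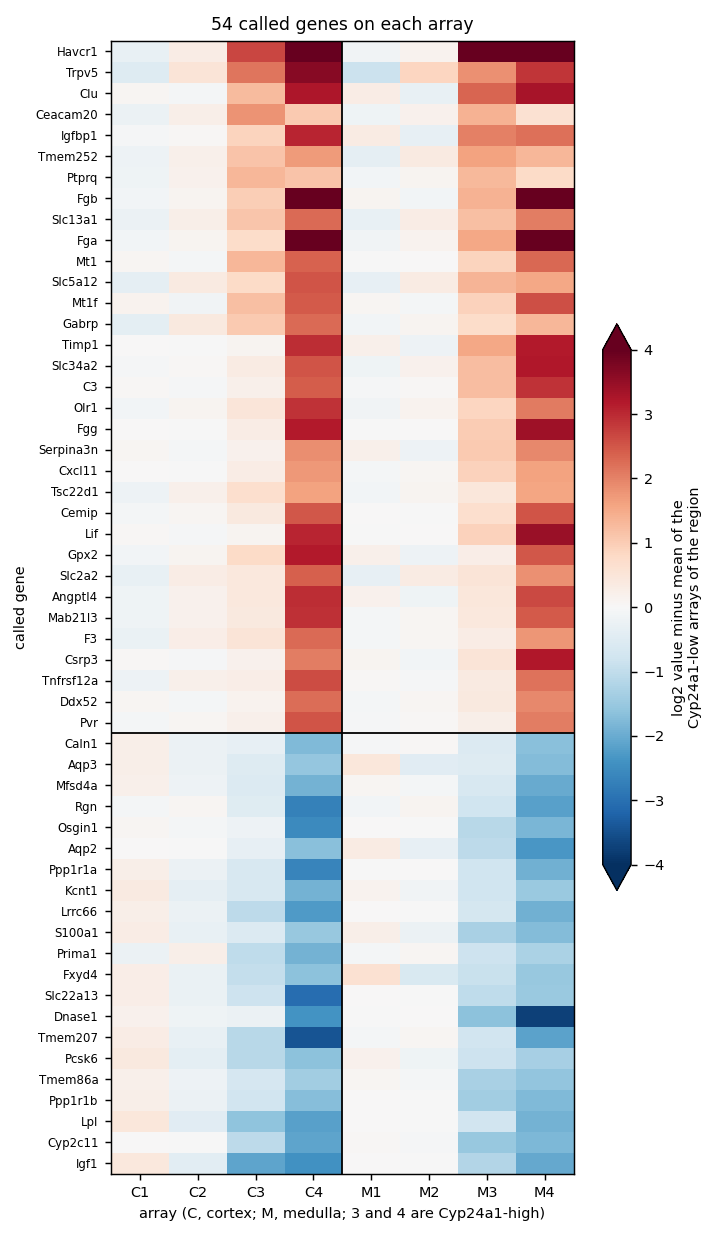
Log2 value of each of the 54 called genes on each array minus the mean of the Cyp24a1-low arrays of its region, with the colour scale ending at -4 and 4 and genes ordered within each direction by the shift of the replicate 3 arrays. Columns C4 and M4 are the darkest for most genes, while Ptprq and Ceacam20 are darker in C3 and M3.

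Of the 32 gene lists 8 held a called gene, and 16 of the 54 called genes were in a list. Since 0.182% of all genes were called higher and 0.116% lower, 0 called in a list is no result about its members. The proximal tubule list had 1 of 21 called, Slc5a12, with a median of -0.09, and the lists of the distal convoluted and connecting tubule and of intercalated cells had 0 of 8 and 0 of 11, with medians of -0.15 and -0.24. The high arrays did not share these medians. The distal list was at 0.10 on the replicate 3 arrays and -0.57 on the replicate 4 arrays, and the intercalated list at -0.06 and -0.46. The podocyte list had 0 of 7 and a median of -0.10. The endothelium list had 0 of 9 called, but all 9 differences were negative, although Cdh5 was at 0.23 in medulla. Over all genes 9097 of 18165 differences were positive. In this list 4 genes were lower without overlap, against 5.46% of all genes. The median was -0.33, at -0.19 on the replicate 3 arrays and -0.66 on the replicate 4 arrays. Plvap, a gene of fenestrated endothelium, measured 8.54 and 8.15 against 7.50 and 7.30 in cortex and 8.82 and 8.43 against 8.24 and 7.99 in medulla. The fibroblast and matrix list had 0 of 12 called and a median of 0.10, at -0.14 on the replicate 3 arrays and 0.37 on the replicate 4 arrays. Its mean level was 6.43 to 7.61 on the high arrays and 6.70 to 7.11 on the low arrays. For leukocytes the mean level was 5.63 to 6.31 on the high and 5.81 to 5.98 on the low arrays. Both lists spread more widely on the high side, but these ranges pool the regions. Except for Col4a1 and Lum, every measured fibroblast and matrix gene had a negative difference in cortex and a positive one in medulla. Dcn was at -1.12 and 0.67, and Bgn at -0.56 and 0.76. Leukocyte genes were mixed, with Lyz2 at -0.58 and 0.99 but Cd74 at 0.32 and 0.16. How far a change in cell types contributes to the called genes was not tested.

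In the proliferation list 14 of 15 differences were positive, against 9097 of 18165 over all genes, with a median of 0.47, and 0 genes were called. Mki67 and Top2a, genes of dividing cells, did not overlap but fell short of 2-fold in cortex, at 6.15 and 6.22 against 6.33 and 7.75 for Mki67, and reached it in medulla, at 5.82 and 6.18 against 7.44 and 8.63. The median was 0.35 for p53 targets, 0.36 for early response transcription factors, 0.30 for the IL-6 family and for matrix proteases and inhibitors, 0.18 for chemokines, 0.10 for oxidative stress, 0.05 for stone matrix proteins and 0.04 for leukocytes. The largest of these medians came mainly from the replicate 4 arrays. On the replicate 3 and replicate 4 arrays they were 0.17 and 0.85 for proliferation, 0.10 and 0.56 for p53 targets and 0.05 and 0.71 for early response factors. They were 0.07 and 0.48 for the IL-6 family, 0.00099 and 0.54 for proteases and inhibitors and 0.04 and 0.30 for chemokines. With all arrays the median was -0.06 for oxalate and ethylene glycol metabolism, -0.07 for fatty acid oxidation, -0.20 for renin-angiotensin genes, -0.29 for urea and osmolyte handling and -0.18 for urothelium. It was 0.01 for adrenal cortex, -0.01 for skeletal muscle and -1.07 for the 2 measured genes of the erythrocyte list, of which Slc4a1 is also a gene of intercalated cells. Timp1 was the 1 called gene of 10 in the protease list, and in the other lists of this paragraph whose calls are not given above 0 genes were called.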

How the data were processed

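Affymetrix whole-transcript arrays measured RNA of rat kidney cortex and medulla. Per the submitters' processing notes, the authors used Affymetrix Expression Console and RMA, with versions not given in the sources used here, and deposited 1 linear intensity per probe set and array, from 17.3 to 6229. These were logged to base 2 with no pseudocount. Of 29870 probe sets, 18511 carry 1 gene symbol in the platform annotation, 575 several and 10784 none, and 18394 matched RefSeq assembly GRCr8. The brightest probe set of a gene was kept, which gave 18166 genes, Cyp24a1 included.

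Sides were set by the Cyp24a1 probe set at log2 8. Values were computed with Python 3.11.15, numpy 2.4.6 and pandas 2.3.3, figures with matplotlib 3.10.9, and the steps were tested on simulated data. The text names the 15 called genes with the strongest weakest pair in each direction, up to 4 called members per list, all measured genes of the vitamin D, calcium and phosphate lists, and Havcr1, Lcn2, Clu, Spp1, Umod, Fga, Fgb and Fgg. The other called genes, further list members and the motifs in Mt1 and the fibrinogen genes were chosen after their values were seen. The split, the genes and the 32 lists were chosen with earlier results of these data known. The alternatives were other normalizations, probe set rules, a filter on dim genes, other fold thresholds and arrays left out.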

Additional observations from a re-analysis of the deposited data

Results flagged for a closer look

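In each region, an array of a named gene is listed when its gap to the next array, divided by the range of the 4 arrays, exceeds Dixon's critical value for 4 samples. Chance gives this in about 1 of 20 groups of unselected genes, but many of these genes were picked because they differ between these arrays, so the 13 of 134 groups that met it, 12 of them on a replicate 4 array, are a description and cannot be read against that rate. On cortex replicate 4 these were the called genes Tnfrsf12a at 8.64, Fgg at 7.64, Lif at 8.05 and Timp1 at 8.78 log2 intensity. They were also Trpv6 at 5.63, Atp2b1 at 7.88, Slc20a1 at 7.79 and Lcn2 at 5.44, all above the other cortex arrays, and Casr at 6.48, Cldn16 at 6.93 and the phosphate exporter gene Xpr1 at 7.49, all below them. In medulla they were Lcn2 on replicate 4, at 5.82 and above the others, and Vdr on the low array replicate 1, at 7.37 and below them. In cortex the 4 called genes thus rested on 1 of the 2 high arrays.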

How the results depend on the processing

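With all arrays 33 genes were higher and 21 lower, and 2 and 2 were at least 2-fold apart in every pair. Repeated quantile normalization, median centring, averaged probe sets and the filter on dim genes kept these 4 counts within 1.5 times. With both fold thresholds set to 1.5-fold they were 76, 85, 14 and 7, and with 3-fold 10, 1, 1 and 0. Without both replicate 4 arrays they were 8, 2, 4 and 2, and without both replicate 3 arrays 131, 123, 99 and 83. With 1 array left out they ranged from 10 to 63, 7 to 46, 2 to 13 and 2 to 9. The call rule fixes the sign of a called gene when arrays are left out, so its sign there shows nothing about stability. Of 448 list medians, 7 moved by more than the spread between arrays. No paired analysis was possible because the replicate numbers were given in accession order and the comparison has no test. Values near the lower quartile limit the folds of 9 higher genes, Fgg among them, and 3 lower genes.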

Other observations

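The low arrays also differed among themselves. In cortex and in medulla, 7 genes (0.0385% of all genes) were at least 2-fold higher on replicate 2 than on replicate 1, namely Calb1, Klk1, Klk1b3, Klk1c10, Slc26a4, Slc8a1 and Trpv5. The clock gene Nr1d1 was the 1 gene (0.0055%) lower. Calb1, Slc8a1, Trpv5 and the kallikrein gene Klk1 are genes of the distal convoluted and connecting tubule, and the kallikrein genes are similar in sequence. Other genes of that tubule were not among the 7. From replicate 1 to replicate 2, Slc12a3 went from 9.37 to 10.12 in cortex and from 9.28 to 10.07 in medulla. Fxyd2 went from 11.21 to 11.04 in cortex and from 11.17 to 11.25 in medulla. Slc8a1 measured 7.64 on cortex replicate 1 and 8.87 on cortex replicate 2, and 7.17 and 8.47 on the medulla arrays. For Klk1 the cortex values were 8.41 and 9.84 and the medulla values 7.83 and 9.88. Slc26a4, the pendrin gene of intercalated cells, stood at 7.20 and 8.26, and at 6.92 and 8.08. The level of Cyp24a1 was 6.21 and 5.69 on these replicate 2 arrays and 5.42 and 5.31 on the replicate 1 arrays.

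Among 11359 probe sets without a single gene name, 3 were higher (0.0264%) and 3 lower (0.0264%) by the rule of the report, against 0.182% and 0.116% of the genes. Probe set 17741229 measured 6.13 and 6.75 on the low cortex arrays against 8.58 and 8.85 on the high ones, and 7.01 and 6.41 against 8.38 and 8.02 in medulla.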
